A study of Homo sapiens with 6 samples.

Results

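The genes described here are 10 members of the insulin-like growth factor (IGF) system: the secreted binding proteins IGFBP1, IGFBP2, IGFBP3, IGFBP4, IGFBP6 and IGFBP7, the receptors IGF1R, IGF2R and INSR, and the receptor substrate IRS2. They were taken by symbol, and all 10 were found among the 54261 symbols of the count table. RNA was sequenced from 786-O cells, an established clear cell renal carcinoma line, in 3 libraries of cells given PHF8-sgRNA with CRISPR-Cas9 (genotype PHF8 knockout) and 3 libraries of cells given Control-sgRNA (genotype PHF8 wildtype). All cells grew in RPMI-1640 with fetal bovine serum and antibiotics. Both groups share the background of this line, in which the tumour suppressor VHL is inactive. PHF8 is a histone demethylase that removes repressive methyl marks. No label states if the knockout cells are 1 clone or a pool, or if libraries of a group were separate cultures. The p-values hence reflect variation among these libraries alone, and it may be technical.

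IGF-1 and IGF-2 act through IGF1R, a receptor tyrosine kinase closely related to the insulin receptor INSR, and both receptors signal through docking proteins such as IRS1 and IRS2 to the PI3K and AKT kinases. Binding proteins hold the IGFs outside the cell, extend their lifetime and limit their access to the receptor. IGF2R, also known as the cation-independent mannose 6-phosphate receptor, removes IGF-2 and sorts lysosomal enzymes. In renal carcinoma IGFBP1 and IGFBP3 are also known as targets of hypoxia-inducible factors.

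Among the 9 members that could be tested, IGFBP3, IGFBP6 and IGFBP7 were higher in knockout cells and IGF1R and INSR were lower. INSR was nearly lost, with 1 read in all knockout libraries together against 90 in the controls. IGFBP1, IGFBP4, IGF2R and IRS2 did not pass the test, and IGFBP2 was too low to be tested. The rise of IGFBP6 turned to a called fall when trends with transcript length and GC content were removed, while IGFBP3 and IGFBP7 stayed higher and IGF1R and INSR stayed lower.

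The promoter windows below are those of INSR and IGF1R, the receptors that fell, and of IGFBP3, the most abundant binding protein. Each runs from 250 bases before to 50 after the RefSeq transcription start (GRCh38.p14), 5′ to 3′ on the strand of the gene, and capitals mark the GC box GGGCGG on either strand, the core site of SP1-type factors. The INSR window is chr19:7294365-7294664 on the minus strand, the IGF1R window chr15:98648289-98648588 on the plus strand and the IGFBP3 window chr7:45921223-45921522 on the minus strand.
INSR: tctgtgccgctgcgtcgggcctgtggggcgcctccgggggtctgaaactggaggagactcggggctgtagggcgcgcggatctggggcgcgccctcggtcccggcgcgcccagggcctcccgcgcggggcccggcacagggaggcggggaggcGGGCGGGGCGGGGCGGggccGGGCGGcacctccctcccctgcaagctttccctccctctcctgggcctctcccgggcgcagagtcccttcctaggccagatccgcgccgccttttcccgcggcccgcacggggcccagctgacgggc
IGF1R: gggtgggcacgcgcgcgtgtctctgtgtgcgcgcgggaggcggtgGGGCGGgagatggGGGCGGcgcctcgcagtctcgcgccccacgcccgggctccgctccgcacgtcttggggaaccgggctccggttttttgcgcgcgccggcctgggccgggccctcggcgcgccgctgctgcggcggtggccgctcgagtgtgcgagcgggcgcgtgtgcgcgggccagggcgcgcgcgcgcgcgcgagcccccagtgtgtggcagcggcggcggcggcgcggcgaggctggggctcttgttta
IGFBP3: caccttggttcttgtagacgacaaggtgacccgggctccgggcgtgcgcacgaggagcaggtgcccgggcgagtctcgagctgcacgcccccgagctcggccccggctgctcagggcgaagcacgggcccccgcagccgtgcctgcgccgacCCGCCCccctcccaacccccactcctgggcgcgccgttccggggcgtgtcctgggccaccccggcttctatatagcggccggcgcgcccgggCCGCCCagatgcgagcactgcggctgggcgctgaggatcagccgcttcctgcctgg
The INSR window held 4 GC boxes, of which 3 overlap in a single run, and the IGF1R and IGFBP3 windows held 2 each. Of 35116 such windows of all genes, 45.0% held at least 1, so a GC box is common. The INSR and IGFBP3 windows each held 36 CpG dinucleotides and the IGF1R window 55, against a median of 14 over all windows. None of the 3 windows held TATAAA (11.5% of all windows), CACGTG (7.26%) or GTAAACA, a FOXO motif (3.42%), each sought on both strands. Among the other members, the window of IGFBP4 held 1 TATAAA, that of IGF2R 3 CACGTG and that of IGFBP6 1 GTAAACA. Those of IGFBP2 and IRS2 held none of these. A match describes letters only. The INSR, IGF1R and IGFBP3 windows had more CpG than the median window, while that of IGFBP6, also called higher, held 12 and so had fewer. RefSeq windows were found for 8 of the 10 members; IGFBP1 and IGFBP7 had none.

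Library totals ran from 25632275 to 29095133 counted reads in knockout libraries and from 21533615 to 25055762 in control libraries. Levels are given as CPM, the read count scaled to library size with TMM factors, and differences were tested with edgeR's quasi-likelihood test, called at a Benjamini-Hochberg adjusted p under 0.05 over 14398 tested genes. PHF8 itself had 10.8, 6.73 and 12.8 CPM in knockout libraries 1, 2 and 3, against 36.5, 35.04 and 32.9 CPM in control libraries 1, 2 and 3 (log2 fold change -1.78 with an SE of 0.21 and an edgeR adjusted p of 0.000119). The knockout libraries stood further apart from each other than the controls: the chi-square per degree of freedom between libraries was 10.2 to 68.1 among knockouts and 2.95 to 13.9 among controls, with knockout library 2 in both of the largest values. Of 10 markers of clear cell renal carcinoma, 9 were above a mean of 1 CPM, with summed levels of 7616 to 9009 CPM in knockout and 6710 to 6741 CPM in control libraries. CA9, a defining marker of the tumour type, was the exception. Most of that summed level was VIM, at 5984 ± 821 CPM in knockout and 5148 ± 14.9 CPM in control libraries (SD, n = 3 each). Summed fibroblast markers lay at 1.13 to 1.62 CPM in knockout and 3.51 to 4.36 CPM in control libraries, summed endothelial markers at 2.71 to 5.18 CPM in knockout and 4.33 to 5.20 CPM in control libraries, and summed leukocyte markers at 9.84 to 13.6 CPM in knockout and 8.37 to 9.60 CPM in control libraries. Their part in the results was not tested. Most of the leukocyte sum was CSF1R, at 10.9 ± 2.15 CPM in knockout and 8.54 ± 0.75 CPM in control libraries (SD, n = 3 each). COL3A1, CDH5, PTPRC, CD3E and LYZ had 0 reads in every library.

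Of the 9 members tested, 5 were called, against 59.7% of all tested genes, so the members were called about as often as genes in general. Among all tested genes 28.9% were called higher and 30.8% lower, and of the members 3 were higher and 2 lower. The median log2 fold change of the tested members was 0.13, against -0.01 over all tested genes. With library totals as the only scaling, the share of calls that were higher was 36.7% rather than 48.4%, the median of all genes moved to -0.18, and 2 members were higher and 2 lower. In 6 of the 9 the groups did not overlap, against 66.8% of all tested genes. The knockout libraries were above the controls in 4 of them (32.6% of all tested genes) and below in 2 (34.2%). In bulk RNA, fewer cells that express a gene and less RNA per cell cannot be told apart.

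**Figure D1:**
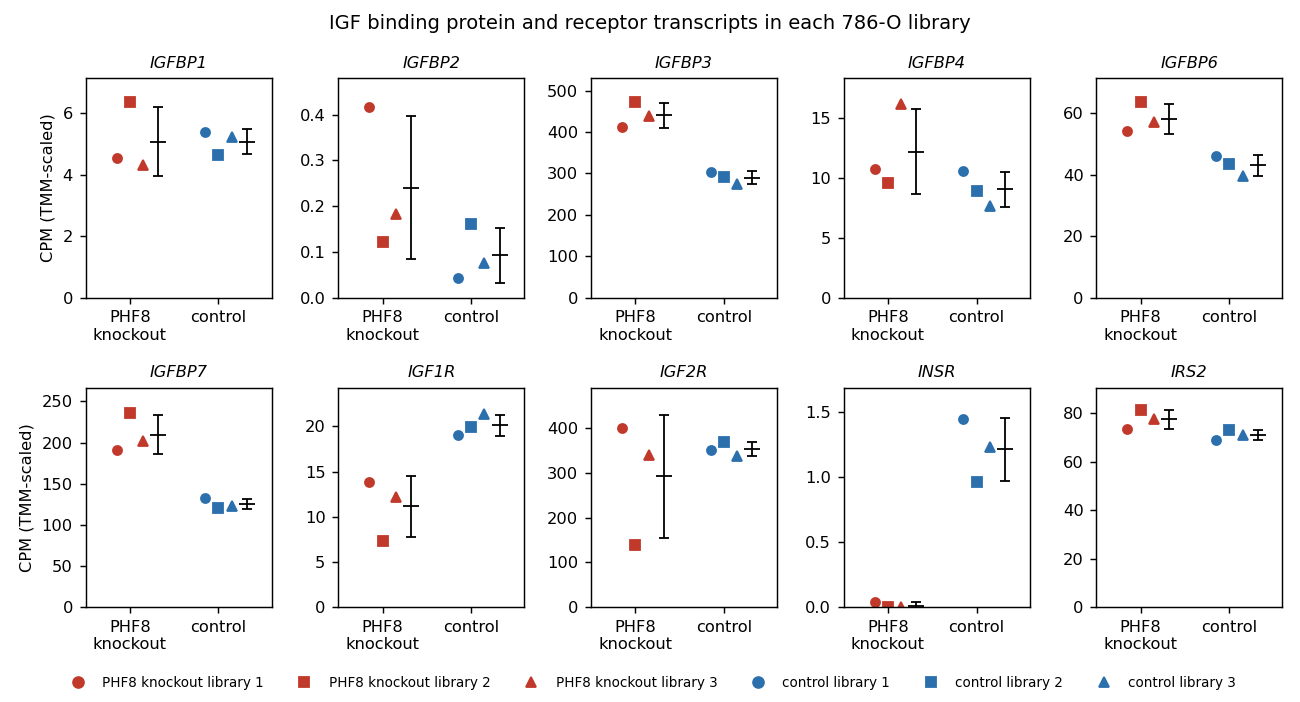
Level of each of the 10 genes in every library, in CPM on a linear axis from 0 that differs between panels. Symbols are libraries, and the bar beside each group is the mean ± SD (n = 3). Knockout libraries lie above all controls for IGFBP3, IGFBP6, IGFBP7 and IRS2 and below all controls for IGF1R and INSR, while IGF2R is low in knockout library 2 only (138 CPM).

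IGFBP3, the main carrier of IGFs in serum, had 412, 471 and 438 CPM in knockout libraries 1, 2 and 3, against 304, 292 and 273 CPM in control libraries 1, 2 and 3. All knockout libraries were above all controls. The gene (chromosome 7, 45912245 to 45921874, GRCh38, minus strand) rose 1.52-fold (log2 fold change 0.60 with an SE of 0.09, edgeR adjusted p = 0.000499).

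IGFBP7, a binding protein of low IGF affinity that is deposited in the extracellular matrix, had 191, 236 and 202 CPM in knockout libraries, against 133, 121 and 124 CPM in control libraries. The groups did not overlap, and knockout library 2 was the highest of all. The gene (chromosome 4, 57030773 to 57110385, minus strand) rose 1.67-fold (log2 fold change 0.74, SE 0.11; edgeR adjusted p = 0.000356). For IGFBP7-AS1, the antisense transcript of this gene, the strand setting used in counting was not given, which limits its count. That transcript had 13, 9 and 21 reads in knockout and 6, 1 and 6 reads in control libraries, against at least 3023 reads for IGFBP7 in every library.

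IGFBP6, which prefers IGF-2 over IGF-1, had 54.1, 63.6 and 57.0 CPM in knockout libraries, against 46.2, 43.4 and 39.5 CPM in control libraries. These groups also did not overlap, and the gene (chromosome 12, 53097436 to 53102345, plus strand) rose 1.35-fold (log2 fold change 0.44, SE 0.11; edgeR adjusted p = 0.00722). The call did not hold under every setting. With library totals only the log2 fold change was 0.27 (edgeR adjusted p = 0.0614), and after smooth trends with transcript length and GC content were removed from each library (an offset) it was -0.32 (adjusted p = 0.00312).

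IGFBP4, a binding protein that inhibits IGF action until the protease PAPP-A cleaves it, had 10.7, 9.60 and 16.2 CPM in knockout libraries, against 10.6, 8.92 and 7.69 CPM in control libraries. Knockout library 3 stood above the other 5, which lay close together. The log2 fold change was 0.43 (95% interval -0.06 to 0.92; edgeR adjusted p = 0.114). Without knockout library 2 it was called (0.58, adjusted p = 0.0283, with 0.0283 to 0.480 over the alternatives), and without knockout library 3 it was 0.17 (adjusted p = 0.461).

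IGFBP1, whose transcription insulin represses in liver through FOXO1, had 4.54, 6.37 and 4.33 CPM in knockout libraries, against 5.39, 4.64 and 5.23 CPM in control libraries. The groups overlapped fully, with a log2 fold change of -0.0023 (95% interval -0.43 to 0.42; edgeR adjusted p = 0.992). IGFBP2, which carries an integrin-binding motif, had 10, 3 and 5 reads in knockout libraries and 1, 4 and 2 reads in control libraries. These counts overlap and were too low to be tested.

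The binding proteins were compared with each other per length, as CPM per kb of the canonical transcript. Their summed level was 386 ± 32.9 CPM per kb in knockout and 252 ± 13.6 CPM per kb in control libraries (SD, n = 3 each; higher in 3 of 3 knockout libraries; exact two-sided permutation p = 0.10, the smallest that 3 against 3 can give). IGFBP3 made up 43.7 ± 0.81% of that sum in knockout and 44.04 ± 0.67% in control libraries (SD, n = 3 each; exact permutation p = 0.60). IGFBP7 made up 38.0 ± 1.08% in knockout and 34.97 ± 1.08% in control libraries, while IGFBP6 made up 15.9 ± 0.08% in knockout and 18.0 ± 0.55% in control libraries (SD, n = 3 each; exact permutation p = 0.10 for both). IGFBP1, IGFBP2 and IGFBP4 were each under 2% of the sum in every library. The sum thus came mostly from IGFBP3, IGFBP7 and IGFBP6, whose log2 fold changes with the length and GC offset were 0.29, 0.23 and -0.32. The sum itself was not computed with that offset. The share of IGFBP7 was higher, and those of IGFBP6 and IGFBP1 lower, in every knockout library than in any control. For IGFBP1 it was 0.86 ± 0.12% in knockout and 1.33 ± 0.11% in control libraries (SD, n = 3 each; exact permutation p = 0.10).

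INSR, the insulin receptor (chromosome 19, 7112255 to 7294414, minus strand), had 1, 0 and 0 reads in knockout libraries 1, 2 and 3, against 33, 24 and 33 reads in control libraries 1, 2 and 3. It was weakly expressed in control cells, at 1.45, 0.96 and 1.23 CPM. By library totals its level was 103-fold lower in knockout cells, with an exact 95% interval of 18.1 to 4120 that covers counting error only. A count of 0 allows up to 0.116 CPM in knockout library 2 and 0.103 CPM in knockout library 3. The edgeR adjusted p was 6.80e-05, and INSR was called lower under all 14 alternative settings. The fitted log2 fold change of -6.07 depends on the prior count and is no bound.

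IGF1R (chromosome 15, 98648539 to 98964530, plus strand), the main signalling receptor for both IGFs, had 13.9, 7.34 and 12.2 CPM in knockout libraries, against 19.0, 19.9 and 21.3 CPM in control libraries. All knockout libraries were below all controls, and knockout library 2 was the lowest at 36.5% of the control mean, against 69.0% and 60.9% in knockout libraries 1 and 3. IGF1R fell 1.80-fold (log2 fold change -0.85 with an SE of 0.21, edgeR adjusted p = 0.00683), and it was called lower under all 14 alternatives, with log2 fold changes from -1.03 to -0.56. The antisense transcript IRAIN had at most 5 reads in any library, with the same limit on strand as IGFBP7-AS1.

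The ratio of IGF1R to INSR per length was 85.9, 46.9 and 85.9 in knockout libraries, where INSR was set to a floor of 3 reads, against 10.2, 16.0 and 13.4 in control libraries. IGF1R was thus the more abundant of this receptor pair in every library. The groups did not overlap (exact two-sided permutation p = 0.10, the smallest possible, higher in 3 of 3 knockout libraries), and the knockout ratios depend on the floor.

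IGF2R (chromosome 6, 159969082 to 160113507, plus strand) had 399, 138 and 340 CPM in knockout libraries, against 351, 368 and 337 CPM in control libraries. Knockout libraries 1 and 3 lay within or above the control range, at 113% and 96.4% of the control mean, and knockout library 2 lay at 39.2%. The log2 fold change was -0.27 (95% interval -0.96 to 0.42; edgeR adjusted p = 0.474), and without knockout library 2 it was 0.07 (SE 0.08, adjusted p = 0.446). The antisense transcript of IGF2R, AIRN, had 0 reads in every library, with the same limit on strand as IGFBP7-AS1.

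IRS2, which links both receptors to PI3K (chromosome 13, 109752695 to 109786583, minus strand), had 73.5, 81.3 and 77.7 CPM in knockout libraries, against 68.8, 72.9 and 71.1 CPM in control libraries. The knockout libraries were all above the controls, but the difference did not pass the test (log2 fold change 0.13, 95% interval -0.08 to 0.33; edgeR adjusted p = 0.253). IRS1, the other main docking protein, had a log2 fold change of -0.01 (SE 0.12; adjusted p = 0.944) at 87.7 ± 14.0 CPM in knockout and 88.4 ± 2.08 CPM in control libraries (SD, n = 3 each). With the length and GC offset IRS1 was called higher (0.28, adjusted p = 0.0120).

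**Figure D2:**
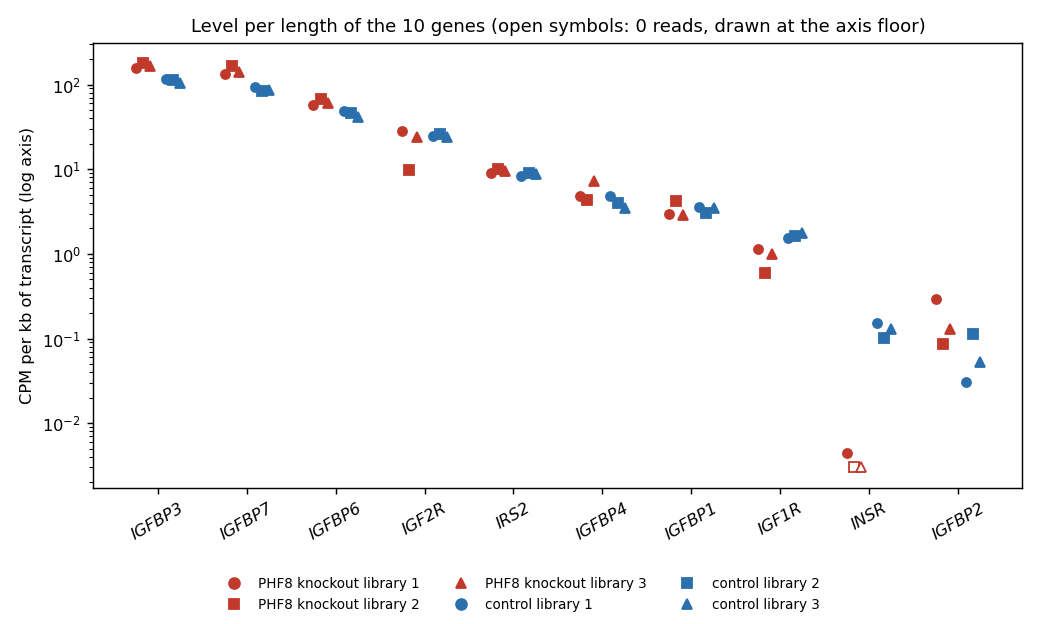
CPM per kb of canonical transcript on a log axis for the 10 genes, ordered by their control mean, with knockout libraries in red to the left of control libraries in blue. Binding proteins IGFBP3, IGFBP7 and IGFBP6 lead in both groups, and INSR drops below every other gene in the knockout libraries, 2 of which had 0 reads and are drawn open at the floor of the axis.

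Per length, the order in control cells was IGFBP3 (111 ± 5.98 CPM per kb), IGFBP7 (88.1 ± 4.35), IGFBP6 (45.4 ± 3.56), IGF2R (25.0 ± 1.13), IRS2 (8.70 ± 0.25), IGFBP4 (4.11 ± 0.66), IGFBP1 (3.36 ± 0.26), IGF1R (1.64 ± 0.09), INSR (0.128 ± 0.026) and IGFBP2 (0.066 ± 0.043; SD, n = 3 each). In control libraries the ranges of IGFBP4 and IGFBP1, and those of INSR and IGFBP2, overlapped. Within each control library IGFBP4 was above IGFBP1, while IGFBP2 was above INSR in control library 2. In knockout cells IGFBP3 stood at 169 ± 11.4 and IGFBP7 at 147 ± 16.5 CPM per kb. Their ranges overlapped, but IGFBP3 was above IGFBP7 within each knockout library. IGF2R at 20.8 ± 9.74 and IRS2 at 9.50 ± 0.48 CPM per kb also overlapped in knockout cells, through library 2. IGFBP2 at 0.170 ± 0.110 CPM per kb was above INSR in every knockout library.

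The members differ in transcript length and GC content, along which fold changes ran across all genes. IGFBP1, IGFBP6 and IGFBP7 are in the shortest of 4 bins of tested genes, whose median log2 fold change was 0.33, and IGFBP3 and IGFBP4 in the next, at 0.15. All 4 receptor and substrate genes are in the longest bin, whose median was -0.59. By GC content, all tested members are in the upper 2 of 4 bins, with medians of 0.20 and 0.43. With the offset, the log2 fold change of IGFBP3 was 0.29 and that of IGFBP7 0.23, both called, and that of IGF1R was -0.56. IGFBP1 was then called lower (-0.43), and IGFBP4 lay at -0.16 without a call. A true difference between the groups along length or GC content would be removed by the offset too.

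**Figure D3:**
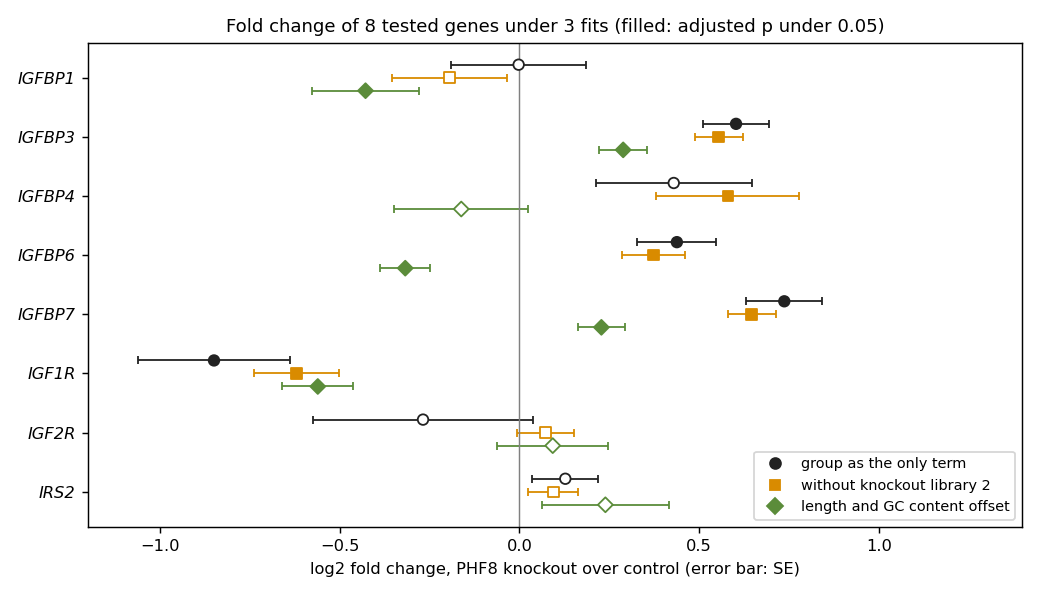
Log2 fold change (knockout over control) with its SE for the 8 tested genes other than INSR, from the fit with group as the only term, without knockout library 2, and with the length and GC content offset. Filled symbols passed an adjusted p of 0.05. IGFBP3, IGFBP7 and IGF1R keep their side of 0 in all 3 fits, while IGFBP6 crosses to -0.32 with the offset.

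The transcript of no IGF-type ligand was seen. INS, IGF1 and IGF2 had 0 reads in all libraries, as did the overlapping readthrough gene INS-IGF2. How reads of overlapping genes were counted is not stated, so for INS and IGF2 a value of 0 may also reflect shared exons. A count of 0 allows at most 0.103 to 0.139 CPM per library. INSRR and IRS4 also had 0 reads throughout. IGFBP5 was low, at 0.93 ± 0.23 CPM in knockout and 0.73 ± 0.20 CPM in control libraries (SD, n = 3 each; log2 fold change 0.34, edgeR adjusted p = 0.380).

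Among proteases that cleave binding proteins and their inhibitors, 6 of 11 tested genes rose, 3 fell and 2 did not pass (median log2 fold change 0.42). Over all tested genes 28.9% rose and 30.8% fell, 59.7% in all. HTRA1, a secreted serine protease that degrades IGF binding proteins, rose to 197 ± 13.6 CPM in knockout libraries, against 68.4 ± 1.43 CPM in control libraries (log2 fold change 1.53 with an SE of 0.09, edgeR adjusted p = 7.74e-06, and 0.98 with the offset). CTSD, the lysosomal protease cathepsin D, rose to 1774 ± 76.1 CPM, against 971 ± 47.3 CPM in control libraries (0.87, adjusted p = 4.94e-05, and 0.23 with the offset). The PAPP-A inhibitors moved in opposite directions. STC2 rose to 332 ± 26.4 CPM in knockout libraries, against 178 ± 5.31 CPM in controls (log2 fold change 0.90). STC1 fell to 10.0 ± 1.12 CPM in knockout libraries, against 38.1 ± 3.12 CPM in controls (log2 fold change -1.92; SD, n = 3 each).

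Of 5 tested genes for CCN proteins and other proteins with an IGFBP-like domain, 3 fell, 1 rose and 1 did not pass (median -0.81, with 59.7% of all tested genes called). CTGF fell to 26.3 ± 2.89 CPM in knockout libraries, against 75.9 ± 5.31 CPM in controls (log2 fold change -1.53). CYR61 fell to 322 ± 18.9 CPM in knockout libraries, against 565 ± 23.7 CPM in controls (-0.81). Both encode matrix-associated signalling proteins. CRIM1, a membrane protein that binds growth factors, fell (-0.86), and KAZALD1 rose (1.36). The 3 genes for IGF2 mRNA-binding proteins, which regulate the stability and translation of many transcripts, were all called, as were 59.7% of all tested genes. IGF2BP3 fell to 17.6 ± 1.61 CPM in knockout libraries, against 70.0 ± 6.62 CPM in controls (log2 fold change -1.99). IGF2BP2 fell to 41.4 ± 4.31 CPM in knockout libraries, against 90.8 ± 1.45 CPM in controls (-1.13). IGF2BP1 rose, at 1.48 ± 0.63 CPM in knockout and 0.29 ± 0.17 CPM in control libraries (2.32; SD, n = 3 each). It had only 5, 4 and 13 reads in control libraries 1, 2 and 3, and dropped out under a filter over 1 CPM.

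Below the receptors, 10 of 22 adaptors and inhibitors fell, 4 rose and 8 did not pass (median -0.22), so that about as many were called as among all tested genes (59.7%). SOS2, a RAS exchange factor, had a log2 fold change of -2.19 (-1.56 with the offset), and PTPN11, the phosphatase SHP2, one of -1.07 (-0.46 with the offset). ENPP1, a membrane enzyme that inhibits the insulin receptor, had -1.13 (-0.43 with the offset), and SOCS1, a cytokine-induced inhibitor of receptor signalling, had 1.39 (0.63 with the offset). All 4 were called in both fits. Of 21 genes of the PI3K and AKT cascade 8 fell, 1 rose and 12 did not pass (median -0.36). Of all tested genes 30.8% were called lower and 28.9% higher, 59.7% in all. With the offset 11 of the cascade genes fell and 3 rose, and with library totals only 12 fell and 1 rose. Over all 14398 tested genes 4648 were called lower and 3889 higher with the offset. With library totals only 5441 were lower and 3153 higher, against 4435 and 4158 with TMM factors. The catalytic subunit gene PIK3CA fell to 6.07 ± 0.40 CPM in knockout libraries, against 20.8 ± 4.79 CPM in controls (log2 fold change -1.78, and -0.75 with the offset). PIK3CB, another catalytic subunit gene, fell to 29.7 ± 0.77 CPM in knockout libraries, against 65.2 ± 5.88 CPM in controls (-1.14, and -0.45 with the offset; SD, n = 3 each). The AKT phosphatase gene PHLPP2 had a log2 fold change of -1.08 (-0.54 with the offset) and the lipid phosphatase gene INPP4A one of -1.13 (-0.71 with the offset), called in both fits.

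Of 15 genes of the mTOR complexes and their regulators 6 rose, 3 fell and 6 did not pass (median 0.29), about the share called among all tested genes (59.7%). EIF4EBP1, a translation repressor that mTORC1 inactivates, rose to 166 ± 25.5 CPM in knockout libraries, against 61.5 ± 2.81 CPM in controls (log2 fold change 1.43, and 0.70 with the offset). MLST8, a subunit of both complexes, rose by 1.25 (0.57 with the offset). RPS6KB2, an S6 kinase gene, rose by 0.49 but was called lower with the offset (-0.16, edgeR adjusted p = 0.0474). RICTOR, the defining subunit of mTORC2, fell by 1.39 on the log2 scale, a call lost with the offset (-0.37, adjusted p = 0.0740).

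Among 16 tested target genes of FOXO factors, which AKT inactivates, 7 fell, 2 rose and 7 did not pass (median -0.24), again near the 59.7% called among all tested genes. With the offset 7 fell and 4 rose, and with library totals only 9 fell and 1 rose. Over all tested genes 4648 fell and 3889 rose with the offset, and 5441 fell and 3153 rose with library totals only. The list holds IGFBP1, INSR and IRS2 themselves. PDK4, a kinase that restrains pyruvate oxidation, fell to 4.37 ± 0.51 CPM in knockout libraries, against 16.3 ± 2.06 CPM in controls (log2 fold change -1.90). CCNG2, an atypical cyclin gene, fell to 2.29 ± 0.63 CPM, against 9.74 ± 0.78 CPM in controls (-2.09, and -1.47 with the offset). SOD2, the mitochondrial superoxide dismutase, rose to 815 ± 135 CPM, against 274 ± 8.75 CPM in controls (1.57, and 2.53 with the offset; SD, n = 3 each). SESN3, a sestrin gene singled out after its values were seen, had 1, 0 and 0 reads in knockout libraries and 23, 38 and 28 reads in control libraries, counts close to those of INSR.

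**Figure D4:**
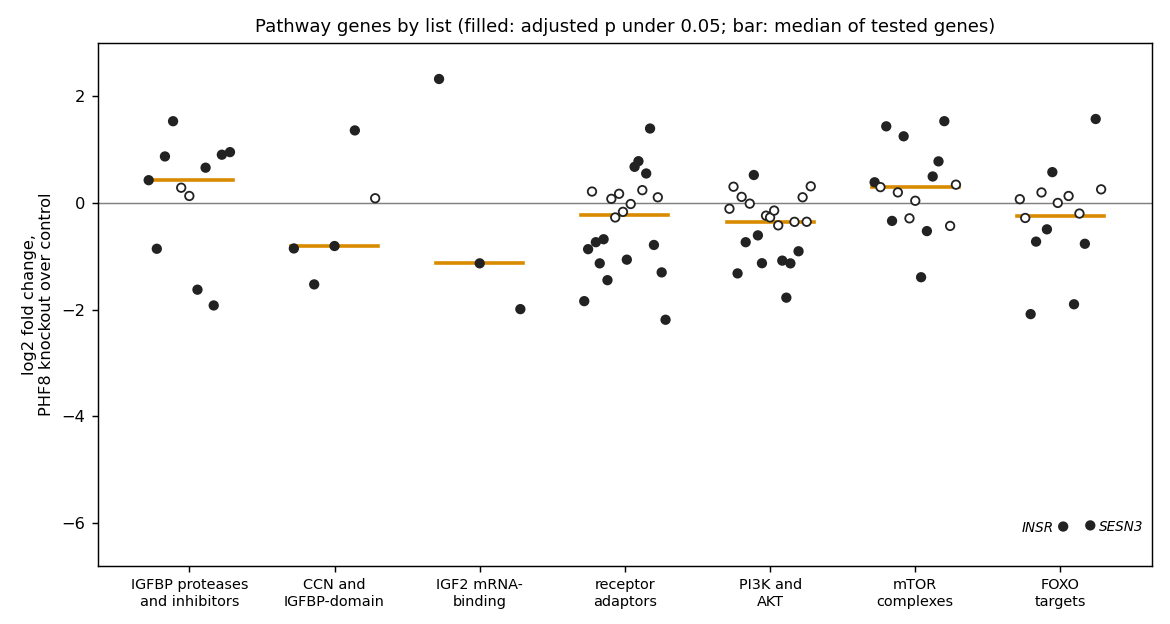
Log2 fold change (knockout over control) of each tested gene in 7 lists around the IGF system, with filled points past an adjusted p of 0.05 and the orange bar at the median of the list. INSR and SESN3, at -6.07 and -6.04, lie far below the other genes. The PI3K and AKT list has 8 called genes below 0 and 1 above, where 30.8% of all tested genes were called lower and 28.9% higher.

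The genes most like IGFBP7, the rising member with the smallest p, by Pearson's correlation of log2 CPM over the 6 libraries, were ATP5D, UBE2S and ALKBH3 (r = 0.9998, 0.9994 and 0.9993). Those most like INSR, the falling member with the smallest p, were PRC1, USP2-AS1 and MRRF (r = 0.9988, 0.9986 and 0.9984). These values describe 6 libraries in 2 groups: 1882 genes had a correlation above 0.95 with IGFBP7 and 1285 with INSR.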

How the data were processed

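The deposited file holds raw read counts per gene symbol for 6 libraries, with no normalization. Per the labels' series design text the authors filtered reads, mapped them to GRCh38 with HISAT2 (version 2.0.4 per the submitters' processing notes) and counted them with HTSeq; for HTSeq the version and strand setting, and the annotation release, were not given in the sources used here. Columns were tied to samples by their titles. The 10 genes, the gene lists and the tests were chosen with earlier results of these data known.

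Genes were kept by filterByExpr (minimum count 10), libraries scaled by TMM (factors 0.936 to 0.957 in knockout and 1.05 to 1.07 in control libraries), and knockout set against control with edgeR 4.0.16 (prior count 0.125, R 4.3.3), with group as the only term. Each SE was obtained from the fold change and the F statistic. Intervals cover counting or library error only. Lengths, GC content and coordinates came from GENCODE on GRCh38 by symbol (34408 direct, 1597 by synonym, 18256 unmatched), using canonical transcripts; promoter windows came from RefSeq. The length and GC offset removes a lowess trend (span 0.3) per library and covers 92.4% of tested genes. Other alternatives were DESeq2 1.42.0, limma-voom (limma 3.58.1), median-ratio factors, library totals, no filter, a filter over 1 CPM, a replicate block and leaving out each library. Named besides the 10 genes were PHF8, up to 4 called genes with the smallest p per list, IGF1, IGF2, INS, IGFBP5 and IRS1, and the 3 genes most like 2 members. The value of 1 marker gene is not reported here.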

Additional observations from a re-analysis of the deposited data

How the results depend on the processing

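INSR, IGF1R, IGFBP3 and IGFBP7 kept their direction and their call under all 14 alternatives. With the length and GC offset 4 members were lower (IGFBP1, IGFBP6, IGF1R and INSR) instead of 2, and IGFBP6 turned to -0.32. The cause was not tested. Over all genes that fit called 3889 higher and 4648 lower. Leaving out 1 library at a time, 3 to 4 members were called higher and 2 lower. Over all genes these fits called 3586 to 4647 higher and 3584 to 4895 lower. The largest counts came without knockout library 2, where 4 members were higher. With each library left out, the knockout minus control difference in the share of IGFBP3 ran from -0.57 to 0.14 percentage points. It changed sign without knockout library 2 or control library 2. The labels do not say that a replicate number marks a shared culture, and same-numbered libraries did not deviate together (correlations -0.044 to 0.020), so the numbers were not taken as pairs; with the replicate block the member calls stayed at 3 higher and 2 lower, over all genes 3895 were higher and 4413 lower against 4158 and 4435 without it, the IGF1R to INSR log2 difference was 2.44 and the IGFBP3 share difference -0.32 points (exact paired permutations cannot go below 0.25 with 3 pairs). IGFBP2 entered only without a filter, at 1.28 (adjusted p = 0.233). Depth limits INSR and IGFBP2, with at most 33 reads per library.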
